A study of Mus musculus with 6 samples.

Results

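Of 55416 genes measured by RNA-seq in mouse small intestinal organoids, 19 rose with a low dose of doxycycline and stood at about the same level at a higher dose. They were chosen by their measured values, on counts per 1e+06 (CPM), each gene's expected count divided by the summed counts of its library and multiplied by that number. A gene was taken when its mean at 0.1 µg/ml was at least 3 CPM and at least 2 times the control mean (0.1 CPM added to both), when its mean at 0.5 µg/ml was 0.8 to 1.2 times that at 0.1 µg/ml, and when all 4 doxycycline libraries exceeded both control libraries. In all, 437 genes had the required level and rise at 0.1 µg/ml, 407 of them with all 4 doxycycline libraries above control, so the 19 were 4.35% of the genes that rose this far. Because the choice used all 3 groups, the levels, folds, fitted intervals and calls of the 19 are given as descriptions and support nothing about them.

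The organoids were grown from intestinal epithelial cells of mice aged 4 to 8 weeks. All groups, control included, carried Col1A1-TetO-OSKM Tg/Tg and Rosa26-rtTA Tg/Tg, a cassette and a transactivator by which doxycycline switches on Oct4 (gene Pou5f1), Sox2, Klf4 and Myc. Control organoids received no doxycycline and the others 0.1 or 0.5 µg/ml for 3 days, with 2 libraries in each group. No group that received doxycycline without the factor cassette was analysed here, so an action of the drug itself and of the factors cannot be told apart. The series calls the libraries biological replicates without saying whether they came from separate mice or cultures, so every p value measures only the spread between these libraries.

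In this system a transactivator protein binds doxycycline and then the operator before the 4 genes, so that more drug gives more factor. Oct4, Sox2 and Klf4 bind DNA directly and, with Myc, can reset differentiated cells to a pluripotent state. The absorptive enterocyte, the most common cell of the small intestinal lining, carries a brush border of actin-filled microvilli in which digestive enzymes and transporters sit. A gene may follow the level of a regulator or level off below its highest amount, and with 2 doses a plateau cannot be told apart from a rise and fall between or beyond them.

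The libraries held 45.3 to 72.5 times 1e+06 counts, the deepest being replicate 1 at 0.1 µg/ml. The 4 factor genes had mean levels of 0.197 to 45.7 CPM in control, 85.2 to 251 at 0.1 µg/ml and 299 to 806 at 0.5 µg/ml, and each was 3.22 to 3.51 times as high at the higher dose. All 28 intestinal identity genes were detected, with Epcam at a mean of 807 CPM in control, 701 at 0.1 µg/ml and 568 at 0.5 µg/ml. By this detection, the epithelial label was met in every group. By the test described below, 8 of the 28 were higher and 18 lower at 0.5 µg/ml than in control. Of all genes tested, 34.4% were higher and 33.1% lower. Markers of other cell types were summed over each list, and 3 of the 4 sums were highest at 0.5 µg/ml. Summed fibroblast and smooth muscle markers were at 5.67 to 7.71 CPM in control, 2.91 to 3.01 at 0.1 µg/ml and 3.67 to 4.27 at 0.5 µg/ml, with 14 of 17 under 1 CPM in every library. Summed immune markers were at 5.33 to 5.53, 7.44 to 7.95 and 15.2 to 16.0 CPM in the same order, with 18 of 20 under 1 CPM in every library and Cd3g, Adgre1, Gzma, Gzmb and Nkg7 among those at 0. Summed endothelial markers were at 6.11 to 6.65, 6.96 to 7.10 and 15.0 to 15.4 CPM, with Cdh5, Cldn5 and Emcn of the 12 at 0, and summed neural and glial markers at 21.4 to 23.3, 36.8 to 41.9 and 170 to 198 CPM, with 6 of 12 under 1 CPM in every library. The part of these lists in the values below was not tested.

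Promoter sequence was available for 17 of the 19 genes, in 23 windows of RefSeq start sites on build GRCm38.p6, each from 250 bases before to 50 bases after the start, and Smpdl3a and Car2 were not matched. Both strands were searched for 7 short motifs. The 4 most abundant of the genes with any of them are shown because they let the letters be read beside the levels below, as the 250 bases before the start, 5′ to 3′, with the motif in capitals.
Krt20, chr11:99438154-99438403, minus strand: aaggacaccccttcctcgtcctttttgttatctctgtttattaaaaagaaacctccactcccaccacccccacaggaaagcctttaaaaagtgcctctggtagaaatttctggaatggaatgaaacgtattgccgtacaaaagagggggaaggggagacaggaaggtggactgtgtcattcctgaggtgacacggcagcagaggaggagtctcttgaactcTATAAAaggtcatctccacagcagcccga
Acot11, chr4:106799832-106800081, minus strand: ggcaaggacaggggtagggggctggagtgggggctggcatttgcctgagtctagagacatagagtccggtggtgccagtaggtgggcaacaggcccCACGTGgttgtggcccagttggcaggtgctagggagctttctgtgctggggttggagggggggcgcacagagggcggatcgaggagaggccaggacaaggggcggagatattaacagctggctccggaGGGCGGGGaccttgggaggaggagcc
Pllp, chr8:94696243-94696492, minus strand: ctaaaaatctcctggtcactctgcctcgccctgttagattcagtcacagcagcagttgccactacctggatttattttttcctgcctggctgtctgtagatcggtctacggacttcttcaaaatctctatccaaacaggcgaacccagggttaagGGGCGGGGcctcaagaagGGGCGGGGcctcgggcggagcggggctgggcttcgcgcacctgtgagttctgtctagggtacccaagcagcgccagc
Espn, chr4:152128926-152129175, minus strand: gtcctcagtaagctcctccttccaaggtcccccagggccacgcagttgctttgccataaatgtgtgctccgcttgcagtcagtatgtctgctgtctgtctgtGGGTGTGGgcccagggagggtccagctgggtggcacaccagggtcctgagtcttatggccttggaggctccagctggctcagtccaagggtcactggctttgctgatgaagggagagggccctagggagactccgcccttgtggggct
The capitals mark a TATA box (TATAAA) that begins 29 bases before the start of Krt20, an E-box (CACGTG) and a GC box (GGGCGGGG) of Acot11, a pair of GC boxes of Pllp, and a CACCC box (GGGTGTGG) of Espn in 1 of its 3 windows. Another window of Espn, not shown, holds a GC box, and the other window of Acot11 holds none of the motifs. The E-box is the letter pattern that Myc and its partner Max are known to bind, and GC and CACCC boxes are read by factors of the Sp and Klf families.

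The octamer ATGCAAAT, the pattern that POU factors such as Oct4 are known to bind, was in the windows of Ptprh and Il18. The 60 bases before each of these starts are shown because they hold it, in capitals, and Il18 holds it on both strands.
Ptprh, chr7:4604042-4604101, minus strand: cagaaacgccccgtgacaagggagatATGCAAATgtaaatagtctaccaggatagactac
Il18, chr9:50554640-50554699, plus strand: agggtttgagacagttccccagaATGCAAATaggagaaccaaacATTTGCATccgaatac
These 2 stretches were picked after the matches were seen. The octamer was in 2 of 23 windows (8.70%) and in 1.74% of all 32851 windows of the table. The E-box was in 4 windows (17.4%, against 7.15% of all), those of Acot11, Rab27a, Slitrk6 and Cfap57. The GC box was in 4 (17.4%, against 17.6%), the CACCC box in 3 (13.0%, against 3.56%), the AP-1 motif TGACTCA in 3 (13.0%, against 5.20%), the TATA box in 3 (13.0%, against 13.6%) and the CRE TGACGTCA in 0 (against 1.79%). With at most 4 windows each, these shares describe letters in a window and say nothing of binding. The median GC content of the windows was 57.0%, beside 58.3% in the windows of the other 308 matched genes that rose at 0.1 µg/ml. Over all windows it was 52.7%. The median number of CpG was 5, beside 10 in the other genes that rose and 7 over all windows.

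Across the 19 genes, the mean at 0.1 µg/ml was 2.01 to 7.59 times the control mean, with a median of 2.60. The mean at 0.5 µg/ml was 0.806 to 1.16 times that at 0.1 µg/ml, with a median of 1.01, and 11 genes lay above 1 and 8 below. The share of the rise at 0.5 µg/ml already present at 0.1 µg/ml was 80.1 to 147%, with a median of 98.8%, where for the 4 factors it was 27.0 to 28.9%. For the 19 genes this share follows from the limits set on the dose ratio.

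**Figure D1:**
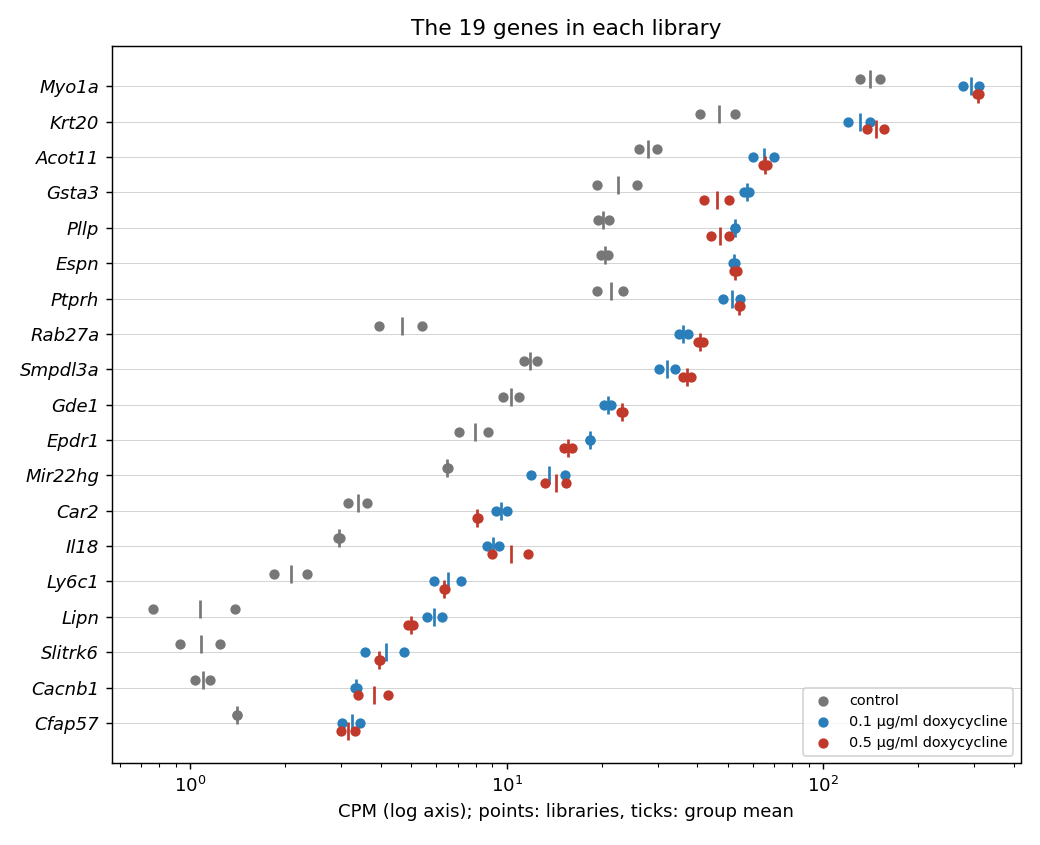
Level of each of the 19 genes in CPM (log axis), with 1 point per library and a tick at each group mean, ordered by the mean at 0.1 µg/ml. In every gene the 4 doxycycline libraries lie to the right of both control libraries, and in 10 genes the libraries of the 2 doses overlap.

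Myo1a, Espn, Krt20 and Ptprh belong to the brush border or mark the differentiated enterocyte, and Myo1a and Krt20 had the highest CPM of the 19. Myo1a (ENSMUSG00000025401), the brush border myosin that ties the actin core of a microvillus to its membrane, was at 130.4 and 152 CPM in control, 311 and 276 CPM at 0.1 µg/ml, and 307 and 311 CPM at 0.5 µg/ml. The doxycycline libraries lay between 276 and 311 CPM, and the doses overlapped, with a dose ratio of 1.05. Espn (ENSMUSG00000028943), which encodes the actin-bundling protein espin, was at 20.98 and 19.8 CPM, then 52.8 and 52.0 CPM, then 52.3 and 53.3 CPM. Its 4 doxycycline libraries lay within 2 CPM of each other, and its dose ratio was 1.01.

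Krt20 (ENSMUSG00000035775), a keratin of mature villus cells, was at 40.9 and 52.8 CPM in control, 141 and 120.2 CPM at 0.1 µg/ml, and 137 and 156 CPM at 0.5 µg/ml. The doses overlapped, since replicate 1 at 0.1 µg/ml exceeded replicate 1 at 0.5 µg/ml, and the ratio of the means was 1.12. Ptprh (ENSMUSG00000035429), a receptor tyrosine phosphatase of the microvillus membrane, was at 19.3 and 23.3 CPM, then 54.7 and 48.3 CPM, then 54.1 and 54.6 CPM. Replicate 1 at 0.1 µg/ml was level with both libraries at 0.5 µg/ml, and replicate 2 was lower.

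Levels were also compared per transcript length, on which scale Myo1a and Krt20 were again the highest. In transcripts per 1e+06 (TPM), the mean at 0.1 µg/ml was 109 for Myo1a, 84.9 for Krt20, 61.5 for Gsta3, 44.6 for Pllp and 40.4 for Espn, and the lowest was 0.950 for Cfap57. In control the order began with Myo1a at 52.0 TPM, Krt20 at 30.5 TPM and Gsta3 at 24.3 TPM.

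Other enterocyte genes did not stay level between the doses. Each gene was tested with edgeR's quasi-likelihood test over 16975 genes, and called at a Benjamini-Hochberg adjusted p under 0.05. Over all genes tested, 20.8% were higher and 13.8% lower at 0.1 µg/ml than in control, 34.4% higher and 33.1% lower at 0.5 µg/ml than in control, and 29.8% higher and 29.1% lower at 0.5 than at 0.1 µg/ml. Of the 3531 genes higher at 0.1 µg/ml, 2354 rose further between the doses, 527 fell and 650 (18.4%) were not called. These shares are the background for the lists that follow. Each list holds at least 1 of the 19 genes, which were chosen for a level dose ratio. Its share not called between the doses is therefore partly set by that choice, and nothing is read from it. A list of absorptive enterocyte genes had 37 tested members. At 0.1 µg/ml 24 of them were higher than in control and 3 lower, whereas 5 were higher and 30 lower at 0.5 than at 0.1 µg/ml. The list's median log2 fold was 0.38 at 0.1 µg/ml against control and -1.36 between the doses, beside 0.02 and -0.02 over all genes tested. Of its 24 genes that rose at 0.1 µg/ml, 19 then fell between the doses, 4 rose further (Fabp6, Slc15a1, Vil1 and Lgals3), and Krt20 alone was not called. The comparisons share libraries, so these counts are not independent of each other.

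Sis, the sucrase-isomaltase of the brush border, averaged 726 CPM in control, 1173 at 0.1 µg/ml and 512 at 0.5 µg/ml. Alpi, intestinal alkaline phosphatase, averaged 63.9, 136 and 61.6 CPM, and Apoa4, an apolipoprotein of chylomicrons, averaged 295, 597 and 224 CPM. In all 3 the rise at 0.1 µg/ml and the fall between the doses were called. In bulk RNA a smaller share of cells of a type and less RNA per cell cannot be told apart.

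Myo1a and Espn stood in a list of 25 structural genes of the microvillus, put together after the 19 genes were known. Of the 25, 17 were higher and 2 lower at 0.1 µg/ml, 13 higher and 8 lower at 0.5 µg/ml against control, and 10 higher and 10 lower between the doses. Of the 17 that rose at 0.1 µg/ml, 9 rose further, 4 fell, and Myo1a, Espn, Eps8l3 and Mall (23.5%, near the 18.4% of all genes) were not called between the doses. Myo1a and Espn are among the 19 genes, so this share is partly set by their choice. The median log2 fold of the list was 0.38 at 0.1 µg/ml against control and 0.07 between the doses. Vil1, the actin-severing and bundling protein villin, averaged 440 CPM in control, 560 at 0.1 µg/ml and 670 at 0.5 µg/ml and rose at each step. Cdhr2, a protocadherin that links microvillus tips, averaged 174, 242 and 114 CPM, and its fall between the doses was called.

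**Figure D2:**
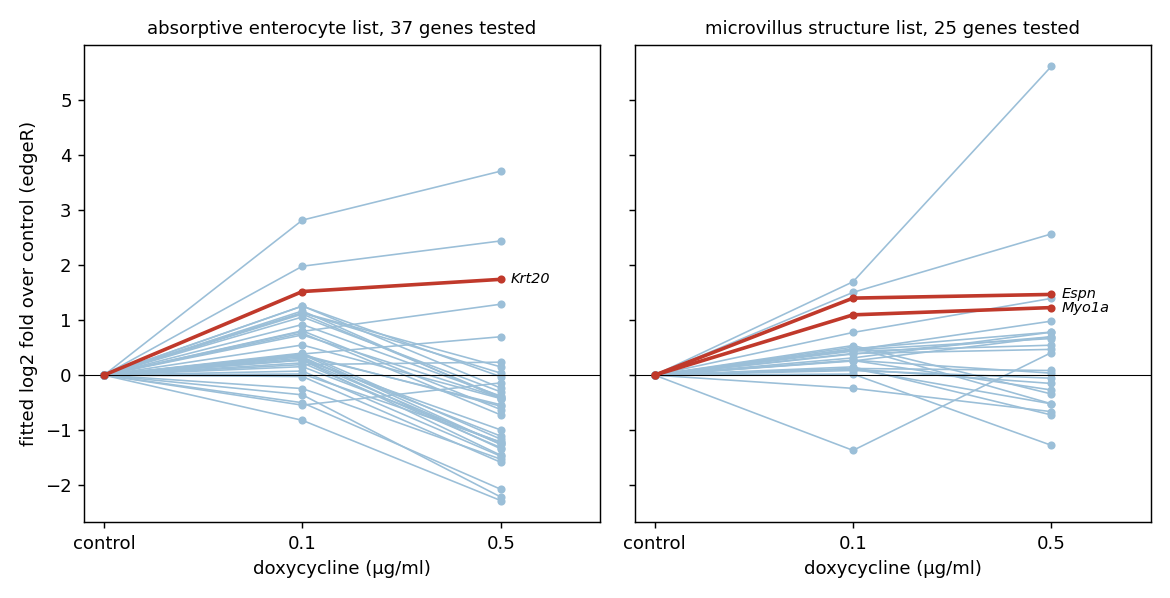
Fitted log2 fold over control (edgeR) of 37 absorptive enterocyte genes (left) and 25 microvillus genes (right) at 0.1 and 0.5 µg/ml doxycycline, 1 line per gene, with Krt20, Espn and Myo1a in red. Krt20, Espn and Myo1a run nearly flat between the doses, while 30 of the 37 enterocyte genes fall.

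Krt20 also stood in a list of 31 tested genes of regenerating epithelium, of which 21 were higher and 5 lower at 0.1 µg/ml than in control. Of those 21, 18 rose further between the doses, 0 fell, and 3 (14.3%, beside 18.4% of all genes) were not called. The median log2 fold of the list was 0.90 at 0.1 µg/ml and 0.71 between the doses.

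A second group consists of enzymes of lipids and phosphodiesters. Acot11 (ENSMUSG00000034853), an acyl-CoA thioesterase that releases fatty acids from coenzyme A, was at 26.2 and 29.9 CPM in control, 70.1 and 60.1 CPM at 0.1 µg/ml, and 66.4 and 64.5 CPM at 0.5 µg/ml. Both libraries at 0.5 µg/ml lay between the libraries at 0.1 µg/ml. Smpdl3a (ENSMUSG00000019872), a phosphodiesterase related to acid sphingomyelinase, was at 11.3 and 12.4 CPM, then 34.0 and 30.3 CPM, then 36.1 and 38.1 CPM. The doses did not overlap, and its ratio of 1.16 was the highest of the 19.

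Gde1 (ENSMUSG00000033917), a membrane enzyme that cleaves glycerophosphodiesters, was at 9.73 and 10.9 CPM in control, 21.4 and 20.3 CPM at 0.1 µg/ml, and 23.4 and 22.9 CPM at 0.5 µg/ml. Its doses did not overlap, and its rise over control of 2.01 times at 0.1 µg/ml was the smallest of the set. Lipn (ENSMUSG00000024770), a member of the acid lipase family, was at 1.39 and 0.765 CPM, then 5.60 and 6.24 CPM, then 5.08 and 4.87 CPM. Both libraries at 0.5 µg/ml lay below both at 0.1 µg/ml, and replicate 2 of control held the lowest count of any of the 19 genes in any control library, 37.

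Gsta3 (ENSMUSG00000025934), a glutathione transferase that conjugates glutathione to reactive compounds, was at 19.3 and 25.7 CPM in control, 58.4 and 56.4 CPM at 0.1 µg/ml, and 50.4 and 42.2 CPM at 0.5 µg/ml. Both libraries at 0.5 µg/ml lay below both at 0.1 µg/ml, and the dose ratio of 0.806 was the lowest of the 19. The other alpha transferases stood lower at 0.5 than at 0.1 µg/ml as well, Gsta1 with means of 402, 638 and 295 CPM and Gsta4 with 301, 409 and 335 CPM. Of the 4 members of this family, 3 were higher at 0.1 µg/ml and 0 lower, and 3 were lower between the doses, with Gsta3 not called (4 with Gsta3 included when libraries were scaled by column sums or by upper quartiles). Reads shared within this family are divided by estimate, so its values are uncertain. Among 34 tested targets of NRF2, which regulates the antioxidant response, 19 were higher and 1 lower at 0.1 µg/ml, and 10 were higher and 19 lower between the doses. Of the 19 NRF2 targets higher at 0.1 µg/ml, 7 rose further between the doses and 8 fell. The others, Gsta3, Cbr3, Ephx1 and Aldh1a1 (21.1%, near the 18.4% of all genes), were not called between the doses. The median log2 fold of the NRF2 list was 0.21 at 0.1 µg/ml and -0.24 between the doses.

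Car2 (ENSMUSG00000027562), a cytosolic carbonic anhydrase, was at 3.15 and 3.62 CPM in control, 9.99 and 9.26 CPM at 0.1 µg/ml, and 8.04 and 8.14 CPM at 0.5 µg/ml. The doses did not overlap, and the higher dose was the lower of the pair. Of 6 tested carbonic anhydrases, 2 were higher and 1 lower at 0.1 µg/ml (1 and 2 under upper quartile scaling or column sums, 2 and 2 under RLE size factors), and 2 were higher and 3 lower between the doses. Car9, a membrane form, averaged 190 CPM in control, 165 at 0.1 µg/ml and 64.8 at 0.5 µg/ml, and Car12, also a membrane form, averaged 7.60, 9.38 and 33.2 CPM.

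Rab27a, Pllp and Epdr1 encode proteins of membranes and vesicles. Rab27a (ENSMUSG00000032202), a small GTPase that docks secretory vesicles at the plasma membrane, was at 3.96 and 5.41 CPM in control, 35.1 and 37.3 CPM at 0.1 µg/ml, and 41.6 and 40.3 CPM at 0.5 µg/ml. Its rise of 7.59 times at 0.1 µg/ml was the steepest of the 19, and the libraries at 0.5 µg/ml both lay slightly above those at 0.1 µg/ml. Its close relative Rab27b averaged 22.8, 23.5 and 22.5 CPM and was not called in any comparison.

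In a list of 12 genes of Rab27 and its exocytosis partners, put together after the 19 were known, 6 were higher and 1 lower at 0.1 µg/ml, and 4 were higher and 5 lower between the doses, with median log2 folds of 0.24 and -0.17. Sytl1, a Rab27 effector, averaged 5.36 CPM in control, 17.8 at 0.1 µg/ml and 55.9 at 0.5 µg/ml. Unc13d, a vesicle-priming factor that binds Rab27, averaged 3.16, 14.1 and 39.1 CPM. Both rose at each step. Rab27a was also called higher between the doses, but by less. Its dose ratio was 1.13, beside 3.14 for Sytl1 and 2.78 for Unc13d.

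Pllp (ENSMUSG00000031775), the membrane-raft protein plasmolipin, was at 21.1 and 19.4 CPM in control, 52.6 and 52.7 CPM at 0.1 µg/ml, and 50.3 and 44.3 CPM at 0.5 µg/ml. The low-dose libraries were nearly identical, and both at the higher dose lay below them. Epdr1 (ENSMUSG00000002808), an ependymin-related protein of lysosomes, was at 7.08 and 8.76 CPM, then 18.4 and 18.3 CPM, then 15.2 and 16.1 CPM, again with the higher dose below the lower.

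Il18 and Ly6c1 are better known from immunity. Il18 (ENSMUSG00000039217), a cytokine made by gut epithelium and matured by caspase 1, was at 2.94 and 2.98 CPM in control, 9.44 and 8.69 CPM at 0.1 µg/ml, and 8.96 and 11.7 CPM at 0.5 µg/ml. Replicate 2 at 0.5 µg/ml stood above the other 3 doxycycline libraries, which lay close together. Il18 overlaps Bco2 on the opposite strand, which averaged 7.43 CPM in control, 14.7 at 0.1 µg/ml and 6.98 at 0.5 µg/ml, and whether the counting used strand was not stated.

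In a list of 10 tested genes of interleukin 18 processing and signalling, also put together afterwards, 3 were higher and 2 lower at 0.1 µg/ml, and 3 were higher and 5 lower between the doses, with median log2 folds of 0.04 and -0.35. The share of 3 in 10 higher is close to that of all genes, 20.8% at 0.1 µg/ml and 29.8% between the doses. The 2 in 10 lower at 0.1 µg/ml stood beside 13.8% of all genes, and the 5 in 10 lower between the doses beside 29.1%. Casp1 averaged 52.9 CPM in control, 54.1 at 0.1 µg/ml and 25.1 at 0.5 µg/ml, with its fall between the doses called. Gsdmd, which forms the pore through which the cytokine leaves, averaged 14.3, 22.5 and 36.0 CPM and rose at each step. In a list of 29 tested genes of inflammation that holds Il18, 11 were higher and 3 lower at 0.1 µg/ml, and of those 11, 6 rose further, 1 fell and 4 (36.4%, beside 18.4% of all genes) were not called between the doses. Il18 is among those 4, so this share is partly set by its choice. The median log2 fold of the inflammation list was 0.36 at 0.1 µg/ml and 0.16 between the doses.

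Ly6c1 (ENSMUSG00000079018), a lipid-anchored surface protein of monocytes and endothelium, was at 1.84 and 2.34 CPM in control, 7.20 and 5.89 CPM at 0.1 µg/ml, and 6.34 and 6.37 CPM at 0.5 µg/ml. Both higher-dose libraries lay between those of the lower dose. Its neighbour in the family, Ly6a (Sca-1), averaged 26.5, 72.1 and 157 CPM and rose at each step, while Ly6e averaged 111, 76.0 and 35.5 CPM and fell. Reads of Ly6c1 could be shared with its near-identical copy Ly6c2, so its level is uncertain.

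The remaining 4 genes have unlike roles. Mir22hg (ENSMUSG00000085148) is the only one that is not protein coding and is the host transcript of microRNA 22. It was at 6.46 and 6.51 CPM in control, 15.3 and 11.9 CPM at 0.1 µg/ml, and 13.2 and 15.5 CPM at 0.5 µg/ml, so that the doses overlapped. Both of its 2 annotated transcripts hold the whole hairpin of 95 bases. The mature microRNAs below are shown because this locus encodes them, with the seed, bases 2 to 8, in capitals, and these poly-A libraries did not measure them.
mmu-miR-22-3p, chr11:75463772-75463793, plus strand: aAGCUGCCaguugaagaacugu
mmu-miR-22-5p, chr11:75463734-75463755, plus strand: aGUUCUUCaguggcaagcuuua
Mir22hg overlaps Tlcd2 on its own strand, which averaged 4.201 CPM in control, 4.22 at 0.1 µg/ml and 3.22 at 0.5 µg/ml.

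Slitrk6 (ENSMUSG00000045871), a transmembrane protein of synapse formation, was at 0.932 and 1.24 CPM in control, 4.74 and 3.56 CPM at 0.1 µg/ml, and 3.97 and 3.96 CPM at 0.5 µg/ml. Cacnb1 (ENSMUSG00000020882), a beta subunit of voltage-gated calcium channels, was at 1.04 and 1.16 CPM, then 3.31 and 3.36 CPM, then 4.22 and 3.40 CPM. Cfap57 (ENSMUSG00000028730), a protein of motile cilia, was at 1.41 CPM in both control libraries, then 3.45 and 3.03 CPM, then 3.00 and 3.33 CPM. The doses overlapped for Slitrk6 and Cfap57, and for Cacnb1 the higher dose lay just above the lower.

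Over the set, the libraries of the doses overlapped in 10 of the 19 genes. In Rab27a, Smpdl3a, Gde1 and Cacnb1 both libraries at 0.5 µg/ml were above both at 0.1 µg/ml, and in Gsta3, Pllp, Epdr1, Car2 and Lipn both were below. Of all tested genes 81.1% did not overlap between the doses, and 24.7% had all 4 doxycycline libraries above both of control. In 12 of the 19 the difference between the dose means was smaller than the larger gap between replicates of a dose. Replicate 1 exceeded replicate 2 at 0.1 µg/ml in 15 of the 19, as in 68.2% of the 437 genes.

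All 19 genes passed the filter on low counts. All 19 were called higher at 0.1 µg/ml than in control, where 20.8% of tested genes were (34.6% in either direction). At 0.5 µg/ml against control all 19 were called higher, where 34.4% of tested genes were higher, 33.1% lower and 67.5% either. Between the doses 3 of the 19 were called, where 58.9% of tested genes were (29.8% higher). The choice of the genes used these contrasts, so nothing is read from the counts or from the calls named next. The 3 called between the doses, all higher at 0.5 µg/ml, were Smpdl3a with a fitted fold of 1.199 (95% interval 1.08 to 1.34), Rab27a with 1.18 (1.04 to 1.34) and Gde1 with 1.15 (1.04 to 1.28). With upper quartile scaling or column sums the count was 2, and Gsta3, lower at 0.5 µg/ml, was among them. The count was 0 without replicate 2 at 0.1 µg/ml or replicate 2 at 0.5 µg/ml, 6 without replicate 1 at 0.1 µg/ml or replicate 2 of control, and 5 without replicate 1 of control.

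The fitted 95% interval of the dose fold gives the precision of each gene. The genes were chosen for a ratio near 1 in these same libraries, so where the intervals lie follows from the choice, and only their width is of use. On a log2 scale the intervals were 0.217 to 0.788 wide, with a median of 0.442. The narrowest was that of Espn, with a fold of 1.05 (0.971 to 1.13), and the widest that of Lipn, with 0.876 (0.667 to 1.15). The interval of Gsta3, 0.703 to 0.995 around 0.836, also left out 1, although the gene was not called after adjustment. These folds rest on TMM-scaled libraries and differ slightly from the CPM ratios above.

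**Figure D3:**
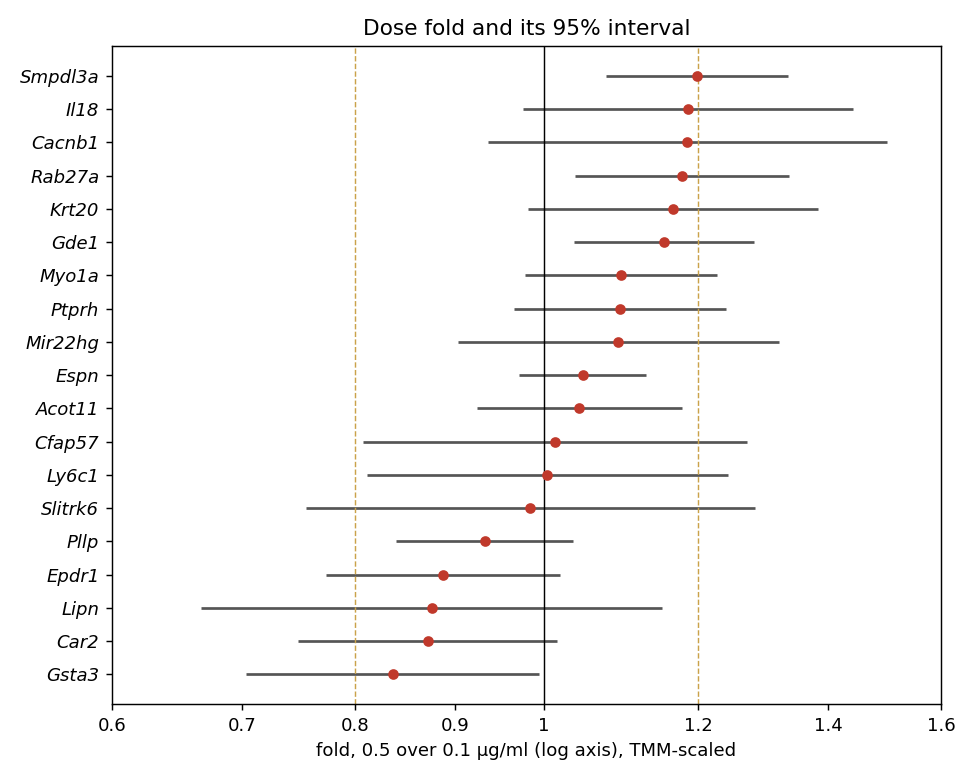
Fitted fold of 0.5 over 0.1 µg/ml doxycycline (edgeR, log axis) of each of the 19 genes, with its 95% interval as a bar and dashed lines at 0.8 and 1.2. The bars of Smpdl3a, Rab27a and Gde1 lie above 1, that of Gsta3 lies below 1, and the other 15 cross it.

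Among the 437 genes that rose 2 times or more at 0.1 µg/ml, a level dose ratio was uncommon. The ratio was 3 to 4 in 73 genes, 2 to 3 in 89 and 4 to 6 in 74, and it was 1.2 to 1.5 in 28. It was below 0.5 in 40 genes, of which 10 had all 4 doxycycline libraries above control, 0.5 to 0.67 in 5 and 0.67 to 0.8 in 7. The median over the 418 genes other than the 19 was 2.73, and their median rise at 0.1 µg/ml was 3.65 times, beside 2.60 for the 19. Their median control level was 2.06 CPM, beside 7.92 CPM for the 19, and 25 of them (5.98%) had at most 3 counts over both control libraries, where none of the 19 did.

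**Figure D4:**
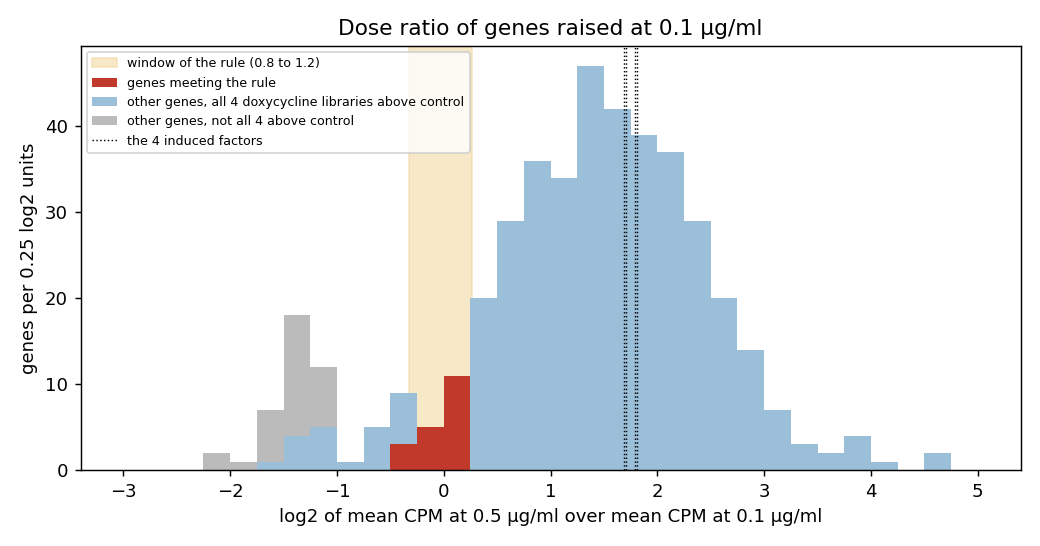
Number of genes by log2 of the dose ratio of mean CPM (0.5 over 0.1 µg/ml), for the 437 genes with the required level and rise at 0.1 µg/ml, stacked, with the 19 in red and dotted lines at the 4 factors. The 19 sit in a low stretch of the distribution between 40 genes under a ratio of 0.5 and a peak of genes near the ratios of the factors.

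The edges of the choice cut through a continuous range. Just inside a dose ratio of 0.8 were Gsta3 at 0.806, Car2 at 0.840 and Lipn at 0.840, and just outside were Ass1 at 0.768, Cyp3a13 at 0.758 and Cyp1b1 at 0.756. Just inside 1.2 were Smpdl3a at 1.16, Cacnb1 at 1.14 and Il18 at 1.14, and just outside were Phospho1 at 1.21, Fam102b at 1.21 and Panct2 at 1.21. By the rise at 0.1 µg/ml, Gde1 at 2.01 and Myo1a and Mir22hg at 2.08 were inside, and Arhgef37 at 1.996, Cxcl1 at 1.95 and Ntn4 at 1.93 were outside. By level, Cfap57 at 3.24 CPM, Cacnb1 at 3.33 CPM and Slitrk6 at 4.15 CPM were inside, and AC125101.1 at 2.91 CPM, Pla2g10 at 2.36 CPM and Mrgpre at 1.89 CPM were outside.

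To read the pattern in a library that had not chosen the genes, the choice was repeated 6 times, each time without 1 library, and the same limits were then asked of that library in place of its group. Over the 4 repeats without a doxycycline library 92 choices were made, and 56 of them (60.9%) met the limits in the library left out. Among all genes with the level and rise in the other libraries, 81 of 1750 (4.63%) did so. The share was lowest for replicate 2 at 0.1 µg/ml, where 12 of 28 genes met the limits, and highest for replicate 1 at 0.5 µg/ml, where 16 of 19 did. With a dose ratio of 0.67 to 1.5 allowed in the library left out, the shares were 84.8% and 11.5%. Leaving out a control library leaves the dose ratio as it was and rechecks only the rise, which 17 of 22 genes met in each of the 2 repeats. Over all 6 repeats the shares were 66.2% and 4.35%. Each reading shares the group not left out with the choice itself, and the repeats share most genes, so no test was made.

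Of the 19 genes, 10 were chosen whichever library was left out, namely Acot11, Pllp, Espn, Ptprh, Rab27a, Epdr1, Car2, Ly6c1, Slitrk6 and Cfap57. Without replicate 1 at 0.1 µg/ml, Myo1a, Krt20, Smpdl3a, Gde1, Mir22hg and Lipn were not chosen, and without replicate 2 Gsta3 was not. Without replicate 1 at 0.5 µg/ml Gsta3 and Il18 dropped out, without replicate 2 Cacnb1 did, and without replicate 1 of control Myo1a and Gde1 did. With TPM in place of CPM, 15 of the 19 met the same limits. Gsta3 and Cacnb1 then passed the edges of the dose ratio, and Cacnb1, Slitrk6 and Cfap57 were under 3 TPM.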

How the data were processed

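Directional MGI libraries of poly-A RNA were sequenced in pairs of 100 bases, per the labels' protocols. RSEM 1.3.3, STAR 2.7.3a, Trim Galore and FastQC are named in the submitters' processing notes, as are the builds GRCm39 and mm10 without roles. The strand setting used in counting is not stated there. For each gene the authors deposited an RSEM expected count, an estimate that can be fractional, and a TPM value, which carries no depth. Because the build is not settled, coordinates are those of RefSeq on GRCm38.p6 only, and overlaps come from GENCODE M21.

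CPM for the choice of genes was the expected count over the column sum. For tests, expected counts were rounded, filtered with filterByExpr and scaled by TMM, and all 6 libraries entered 1 edgeR 4.0.16 quasi-likelihood fit (R 4.3.3) with a mean per group and 3 residual degrees of freedom. Tests were two-sided, with Benjamini-Hochberg adjustment over 16975 genes at 0.05. Intervals came from the F statistic. The fit was tested on simulated data. Replicates differed by more than sampling noise, with a chi-square per degree of freedom of 5.60 to 6.37.

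The members and lists were chosen with earlier results of these data known. The lists of the microvillus, alpha transferases, Rab27, interleukin 18, carbonic anhydrases and the Ly6 family were added once the 19 genes were known. Genes were named by level, rise, closeness to the limits, width of the interval and place in a list, and promoters by level among windows with a motif. Other alternatives were DESeq2 1.42.0, limma 3.58.1 on log2(TPM + 1) and log2(TPM + 0.1), other scalings and limits, no filter, a replicate block and each library left out.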

Additional observations from a re-analysis of the deposited data

How the results depend on the processing

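The number of genes chosen, the held-out shares, the calls and the folds of the 19 were recomputed under other choices, and the list counts under 3 other scalings. The DESeq2 and limma fits also change the genes tested. The 19 genes became 32 with a minimum of 1 CPM, 12 with 10 CPM, 8 with a dose ratio of 0.9 to 1.1 and 54 with 0.67 to 1.5, so their number is set by these limits. It was 16 to 19 under other scalings, the TPM table, a larger added value or without the requirement on all 4 libraries, and 19 to 28 without 1 library. TMM scaling kept 18 of the 19, with Smpdl3a at a ratio of 1.202 lost and Arhgef37 gained, and upper quartile scaling kept 19. Genes called at 0.1 µg/ml against control numbered 5881, and 3505 with limma on log2(TPM + 1), 3508 on log2(TPM + 0.1), and 3800 to 5248 without 1 library, the lowest without replicate 1 at 0.1 µg/ml. Of the 19 genes, 3 were called between the doses, and 2 with upper quartile scaling or column sums. That count was 6 with no filter, 0 with limma at either added value, and 0 to 6 without 1 library. The 19 genes were called higher at each dose than in control in 18 or 19 of 19 cases under every alternative. The labels do not say whether a replicate number links libraries of different groups. Replicate differences correlated at -0.06 to 0.09 between groups, which with 2 libraries a group cannot settle whether they were paired. With the replicate number as a block, 5265, 11162 and 9607 genes were called at 0.1 and 0.5 µg/ml against control and between the doses. Of the 19 genes, 19, 19 and 3 were called in the same order. The block changed no count by over 1.5 times. With 2 libraries a group, the 95% interval of the dose fold was 0.217 to 0.788 wide on a log2 scale across the 19.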

Other observations

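Genes just outside the limits included enzymes of drug and hormone metabolism, named here after their values were seen. Cyp3a13, a cytochrome P450 of xenobiotic oxidation, averaged 70.1 CPM in control, 167 at 0.1 µg/ml and 127 at 0.5 µg/ml. Cyp1b1, a cytochrome P450 that oxidises estrogens and aromatic compounds, averaged 1.57, 8.48 and 6.41 CPM, and Ass1, the argininosuccinate synthase of arginine production, averaged 8.05, 18.01 and 13.8 CPM. In these 3 genes both libraries at 0.5 µg/ml lay below both at 0.1 µg/ml and above both of control.

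Slc15a1, the peptide transporter of the brush border, was at 1.88 and 2.87 CPM in control, 9.81 and 8.38 CPM at 0.1 µg/ml, and 11.3 and 12.8 CPM at 0.5 µg/ml. Phospho1, a phosphatase of phosphocholine and phosphoethanolamine, was at 18.5 and 19.7 CPM, then 47.1 and 41.9 CPM, then 53.2 and 54.2 CPM, with no overlap between the groups.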
